A study of Homo sapiens with 42 samples.

Results

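The comparison described here was between 93VU147T cells given cetuximab at 100 nM for 24 hours and 93VU147T control cells, which the labels list as not treated and for which the study names PBS. 93VU147T is a cell line from a head and neck squamous cell carcinoma, and the study counts it among the lines that carry human papillomavirus (HPV). The 6 arrays were chosen by sample titles that begin with the name of the line, and they were 6 of the 42 arrays of the series, 3 with cetuximab and 3 controls. Both groups were the same line with no engineered change, so the results describe 1 line at 1 dose and 1 time. The study lists an HRAS mutation in this line and says that the variant is not at an activating hotspot. The labels do not say whether the 3 arrays of a group came from separate cultures, so the p-values measure only a spread between arrays, which may be technical. That spread was estimated jointly from the 36 arrays of 6 lines in the fit, not from these 6 arrays alone. The number of arrays limits the precision. The labels give 93VU147T a survival rate of 35.57% after 7 days of cetuximab, from colonies in matrigel, against 7.61% to 40.16% in the other 5 carcinoma lines that were measured with and without the antibody (SCC047, SCC090, SCC25, SQ20B and SCC61). The study classes SCC047 and SCC090 as HPV-positive too, and the rest as HPV-negative.

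Cetuximab is an antibody that binds the outer part of the epidermal growth factor receptor (EGFR) and keeps ligands from it. Active EGFR drives the RAS, RAF, MEK and ERK kinases, and ERK switches on immediate early transcription factors, growth genes and a set of phosphatases and adaptors that damp the pathway in turn. In squamous cells the receptor holds cells in a proliferating, undifferentiated state and has been linked to lower interferon gene expression. HPV-positive carcinomas carry viral proteins that inactivate p53 and RB, and loss of RB is known to leave the cell cycle inhibitor p16, the product of CDKN2A, at a high level.

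The measured quantity was the log2 expression level of 19775 genes on Affymetrix arrays, with 1 probe set kept per gene. In the controls CDKN2A stood at 12.1 ± 0.0923 (log2, SD, n = 3), against 11.6 and 10.9 in SCC047 and SCC090, 9.95 in SCC61, 6.89 in SQ20B and 5.88 in SCC25. The epithelial keratin KRT5 was at 11.6, within the range of 10.6 to 13.3 of the other lines, EPCAM at 9.98 and the basal keratin KRT14 at 7.05, in a range of 4.85 to 14.2. Markers of other cells were mostly dim: 9 of 11 fibroblast, 9 of 11 leukocyte, 7 of 9 endothelial and 6 of 9 melanocyte and neural markers were at or below the median gene of the control arrays. Their changes with cetuximab did not stand out, with 0 higher and 2 lower, 1 and 1, 0 and 1, and 0 and 1 in these 4 lists. Of all genes 15.8% were higher and 18.8% lower. The 3' minus 5' difference of the ACTB probe sets, a sign of RNA quality, shifted by -0.0016 and that of GAPDH by -0.027 (log2; two-sided exact permutation p = 1 and p = 0.5, where 3 arrays against 3 can give no p under 0.1). In these bulk samples fewer cells of a kind and less RNA per cell cannot be told apart. All 6 arrays held the same string of digits in their array names, from which batches were inferred here.

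Control replicate 3 stood apart from the other controls, so the counts over all genes in the main tests are given with and without it. For many gene lists the counts of changed members are too. Counts of list members that differed between lines, single differences and overlaps with other lines are given only with it. It was higher than the mean of control replicates 1 and 2 by 1.44 for FRAS1, 1.36 for ASNS, 1.32 for INHBE, 1.22 for STC2 and 1.12 for NPIPA1 (log2 differences). It was lower by more than 1 for the interferon genes IFI6 (-1.06) and ISG15 (-1.05) and for SMOC2 (-1.07), and MBIP differed by -0.99. KRT19 also met this rule at -1.24, but there control replicate 1 was the high array (6.17, against 3.84 and 3.76). ASNS, INHBE and STC2 belong to the amino acid stress response, and the 35 genes listed for that response averaged 9.04, 9.19 and 9.61 in control replicates 1 to 3. The 40 interferon genes averaged 7.78, 7.56 and 7.29 in the same arrays.

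After cetuximab 6845 of 19775 genes (34.6%) passed the test in either direction (limma adjusted p under 0.05), 3129 higher (15.8%) and 3716 lower (18.8%). Without control replicate 3 the counts were 3063 and 3691, of which 2760 and 3246 had the same call with all arrays, and no gene passed in opposite directions. All 3 cetuximab arrays lay above all 3 controls for 3619 genes (18.3%) and below them for 4643 (23.5%). Most changes were small: 165 genes were higher and 184 lower by at least 1 on the log2 scale. The median change of all genes was -0.04.

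The steepest decreases were in signalling and stress genes. EGR1, a zinc finger transcription factor that ERK induces, had control values of 10.32, 9.65 and 9.56 and cetuximab values of 6.16, 5.83 and 6.22 (log2 levels). Every cetuximab array was more than 3 log2 units below the lowest control, and the change was -3.78 ± 0.26 (SE), or 13.7-fold lower (limma adjusted p = 2.38e-12). EDN1, the vasoconstrictor peptide endothelin 1, went from 10.30, 10.27 and 9.71 to 7.52, 7.54 and 7.37 and was 6.13-fold lower. Next came ASNS, CYP24A1 (the enzyme that breaks down active vitamin D, change -2.49), SCAT1 (-2.43), NUPR1, IL1A, JDP2 (a repressor of the AP-1 family, -2.16), the secreted matrix protein CCN1, NRG1, the pentraxin PTX3 (-2.01), CDC42EP5 (-1.99), CXCL8, PLAC8 (-1.95) and EXD3 (-1.95). These 15 genes were chosen among those whose groups did not overlap. Most other probe sets of these genes were dimmer and changed less, with -2.02 and -0.88 for EDN1, -0.04 for JDP2, -0.15 and -0.46 for EXD3 and -1.78 for CXCL8, while that of CCN1 changed by -2.15. The other probe sets of EGR1, ASNS, IL1A and NRG1 are given with those genes.

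The largest rises, also chosen among genes whose groups did not overlap, were smaller. The histone gene H2BC4 went from 4.70, 5.06 and 5.12 to 6.88, 6.65 and 6.92, a change of 1.85 ± 0.11 (3.62-fold, limma adjusted p = 1.16e-13). The neurofilament chains NEFM and NEFL followed, with changes of 1.83 and 1.81, and SCEL, the cornified envelope precursor sciellin, with 1.82. SAMD9, an antiviral factor, rose by 1.81. The other rises among the first 15 were PCLO (1.80), OR7E14P (1.78), RASSF9 (1.77), NAP1L2 (1.75), MAP2K6 (a kinase that activates p38, 1.72), IFIT3, STS (steroid sulfatase, 1.66), NRG4, IFIT2 and the mitotic kinesin KIF14 (1.55). OR7E14P is a pseudogene of a large receptor family and H2BC4 has near-identical relatives, so their probe sets may also read related transcripts. For several of these genes the probe sets did not move alike. The second MAP2K6 probe set changed by -0.07, that of NEFM by 0.13, that of RASSF9 by 0.64, that of IFIT2 by 0.70, that of IFIT3 by 1.09 and that of SAMD9 by 1.18. The other probe sets of SCEL changed by 1.87, 0.86 and 0.00, those of PCLO by 1.52 and 0.03, and those of STS by 0.67, 0.52 and 0.39.

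**Figure D1:**
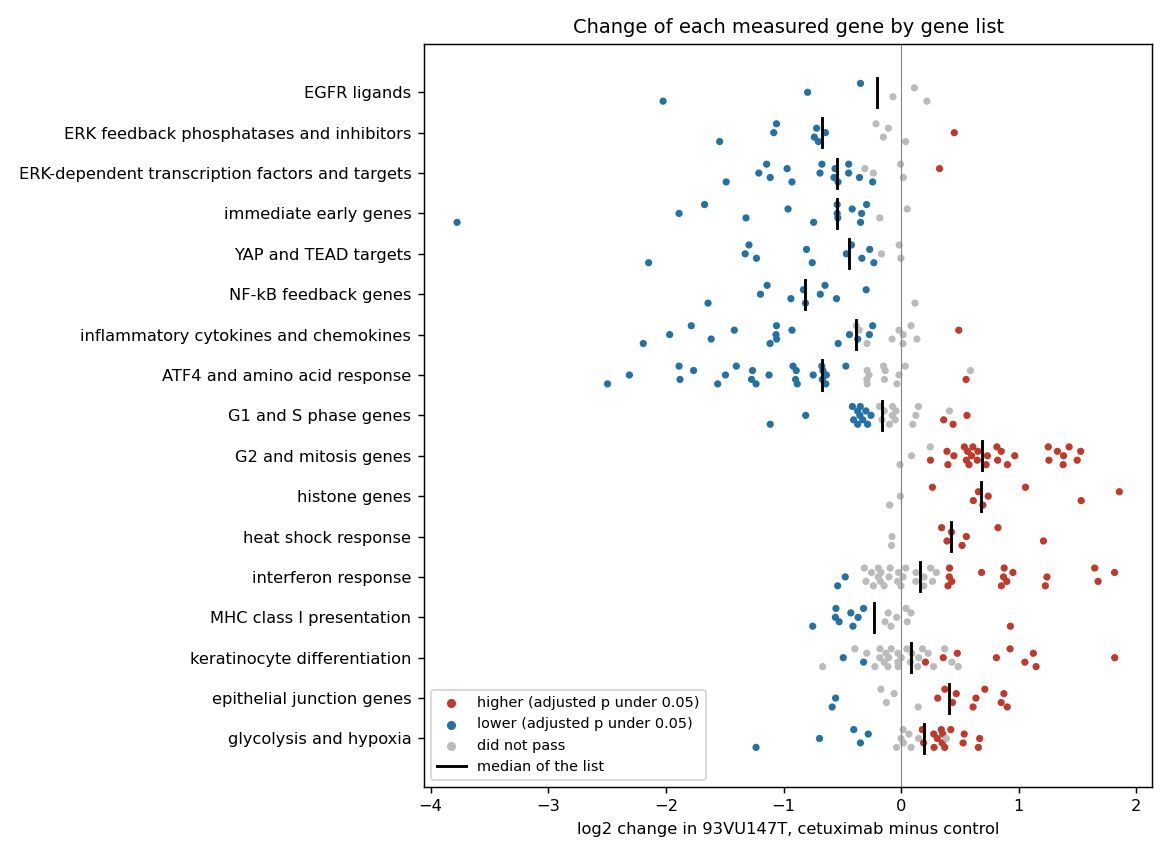
Change after cetuximab in 93VU147T (x axis, log2 difference, cetuximab minus control) for the members of 17 gene lists (rows). Each point is a gene, coloured by whether it passed the limma test as higher or lower, and the black bar is the list's median. The medians run from -0.81 for the NF-kB feedback genes to 0.69 for the G2 and mitosis genes, and the interferon list spreads to both sides.

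The receptors themselves moved little. EGFR was at 10.53, 10.72 and 11.46 in the controls and at 10.80, 10.61 and 10.91 with cetuximab. The groups overlapped, and the change of -0.13 did not pass (limma adjusted p = 0.518) and became 0.15 without control replicate 3 (adjusted p = 0.314). The next brightest EGFR probe sets changed by -0.10, -0.25, -0.31 and -0.29, and the dimmer ones by 0.17, 0.12, -0.11 and -0.02. ERBB2 changed by -0.15 (adjusted p = 0.13) and ERBB4 by 0.09 (adjusted p = 0.608). ERBB3, the kinase-poor partner that binds neuregulins, was the only member of the family to pass, at -0.30 ± 0.08 (adjusted p = 0.00499). Its other, dimmer probe sets changed by -0.17, -0.02, -0.21 and -0.01.

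Among the 6 measured ligands of the family 3 fell, where 18.8% of all genes did, and none rose. NRG1, a neuregulin that binds ERBB3 and ERBB4, read 9.12, 9.04 and 8.59 in the controls and 6.89, 7.05 and 6.74 with cetuximab, 4.07-fold lower (change -2.02 ± 0.20, limma adjusted p = 1.98e-09). The gap between the groups was more than 1 log2 unit, in a gene picked among those without overlap. The 5 other NRG1 probe sets changed by -0.11 to -0.81. The EGFR ligands HBEGF and TGFA fell by 0.80 and 0.35, and EGF, BTC and EREG had changes of 0.22, 0.11 and -0.07 that did not pass. Other, dimmer probe sets changed by -0.66, -0.23 and 0.16 for HBEGF and by -0.01 and 0.19 for TGFA. NRG4, a neuregulin for ERBB4 that was not in the list of ligands, went the other way, from 4.36, 4.28 and 3.97 to 5.88, 5.79 and 5.90 (3.14-fold higher, adjusted p = 2.77e-11).

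Of 12 feedback inhibitors of ERK signalling 7 fell, where 18.8% of all genes did, and 1 rose, with a median change of -0.67 (8 fell without control replicate 3). DUSP6, the cytoplasmic ERK phosphatase, went from 8.72, 8.71 and 8.28 to 7.10, 6.84 and 7.15, which was 2.91-fold lower (change -1.54 ± 0.27, limma adjusted p = 3.79e-05). DUSP5, a nuclear ERK phosphatase, fell by 1.08 and DUSP1, which acts on p38 and JNK as well, by 1.06. DUSP2, DUSP4, the receptor signalling antagonist SPRY2 and SPRED2 fell by 0.72, 0.64, 0.74 and 0.70. DUSP7 rose by 0.45, while its other, dimmer probe set changed by 0.00. The dimmer probe sets of DUSP1 changed by -0.23 and -0.36 and those of SPRED2 by -0.23 and 0.03. Those of DUSP4 both changed by -0.36, and those of DUSP6 by -1.34 and -1.15. SPRY1 (-0.21), SPRY4 (0.04), SPRED1 (-0.11) and SPRED3 (-0.15) did not pass. Among the adaptors and attenuators that act on the receptor, ERRFI1, an inhibitor that binds the EGFR kinase domain, went from 9.77, 9.67 and 9.95 to 8.45, 8.23 and 8.46 and was 2.67-fold lower. In that list 4 of 12 fell and 1, SOCS5, rose (3 without control replicate 3 or without cetuximab replicate 2), and LRIG1 lost its call without control replicate 3 (-0.32, adjusted p = 0.0872).

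The immediate early genes, which need no new protein to be induced, fell as a group: 13 of 15 passed as lower and none as higher. Of all genes 18.8% were lower. The median change of the list was -0.54, and the count was 13 without control replicate 3 as well. NR4A1 (-0.18) and BHLHE40 (0.05) did not pass. After EGR1, ATF3 fell from 9.34, 9.23 and 9.28 to 7.43, 7.42 and 7.34 (3.70-fold). JUN, a subunit of the AP-1 transcription factor, fell from 10.63, 10.60 and 10.54 to 8.92, 8.94 and 8.89 (3.18-fold). The groups were far apart for both genes, and the arrays of a group were close together. Of all genes 23.5% had groups separated in this direction. FOS, the partner of JUN, was 2.49-fold lower, and KLF6 and KLF4 had changes of -0.96 and -0.74. The 3 probe sets of EGR1 changed by -3.78, -2.82 and -1.39. The upstream sequence of EGR1 is shown because it holds the CArG box through which serum response factor, a target of ERK signalling, is known to act. The window is on the + strand of chr5:138465371-138465430 (RefSeq, GRCh38.p14), written 5′ to 3′ with the CArG boxes in capitals.
EGR1: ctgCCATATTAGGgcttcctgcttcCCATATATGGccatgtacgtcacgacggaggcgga
A CArG box on either strand lay within 250 bases upstream of the start site in 2 of the 13 members with a promoter in the table (15.4%, EGR1 and SRF, both lower), against 1.14% of 27305 genes. Of the 11 members without one 9 were lower.

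**Figure D2:**
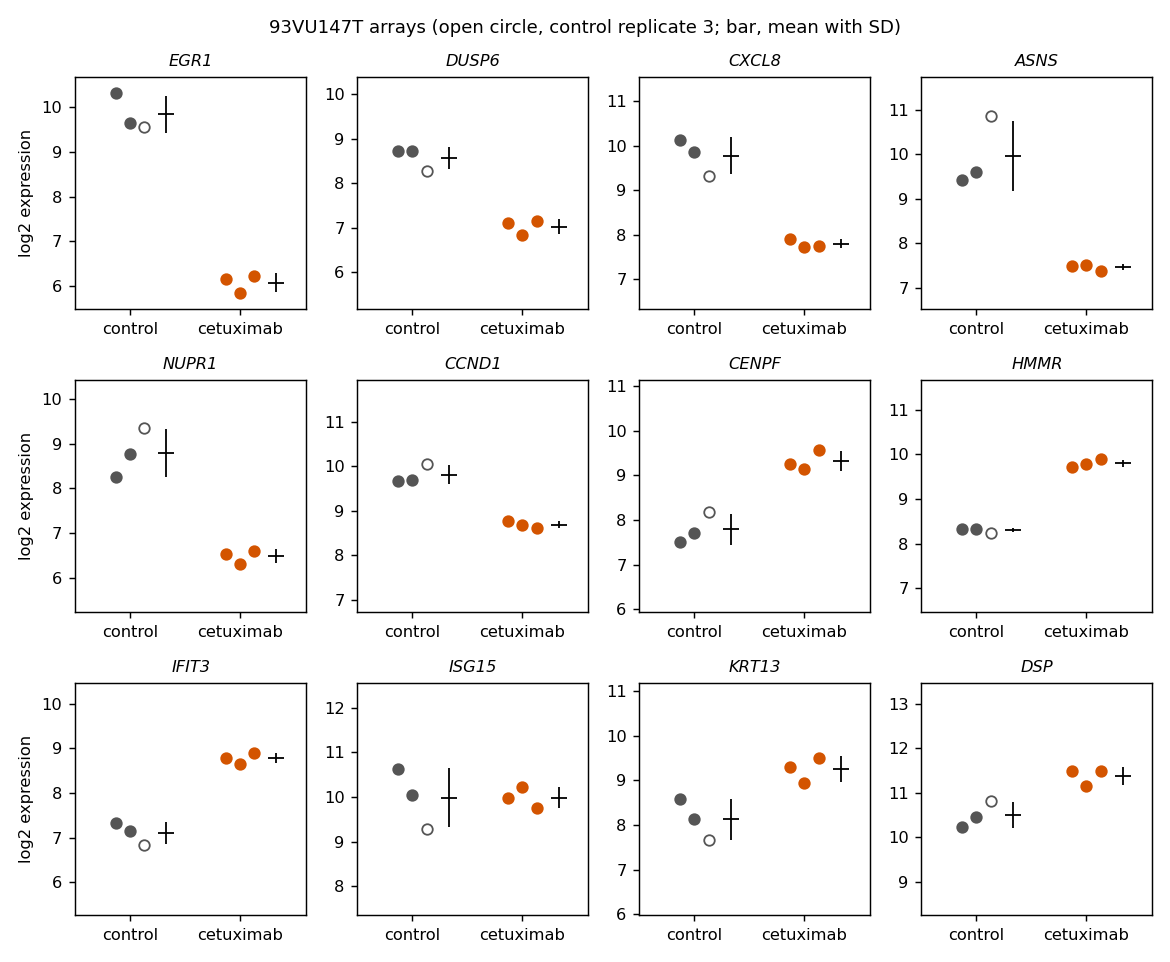
Levels of 12 genes (y axes, log2 expression) in the 3 control and the 3 cetuximab arrays of 93VU147T. Each point is an array, the open circle is control replicate 3, and the bar and whiskers are the mean and SD of a group (n = 3). EGR1 drops from 9.56 or more in the controls to 6.22 or less, and for ISG15 the groups overlap, from 9.29 to 10.62 in the controls and from 9.75 to 10.23 with cetuximab.

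Of 20 transcription factors and targets that depend on ERK 15 fell, against 18.8% of all genes, and 1, EPHA4, rose (median change -0.55). There were 14 that fell without control replicate 3, and none rose without control replicate 2. MYC, the growth transcription factor, went from 11.54, 11.69 and 11.84 to 10.28, 10.05 and 10.27 and was 2.80-fold lower (change -1.49 ± 0.10, limma adjusted p = 1.03e-12). The urokinase PLAU was 2.31-fold lower, the early response gene IER3 2.21-fold and the cytokine LIF 1.90-fold. PHLDA1 had a change of -0.97 ± 0.30. DUSP6, IER3, HBEGF, ETV4 and FOXD1 were the 5 genes that passed as lower in 93VU147T and in each of the other 5 lines, and no gene passed as higher in all. In 93VU147T ETV4 and FOXD1, which were named after their values were seen, had changes of -0.69 and -0.56.

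Targets of YAP and TEAD, the transcription factors of the Hippo pathway, fell in 11 of 14 cases and rose in none. Of all genes 18.8% fell. The list's median change was -0.44, and 9 members fell without control replicate 3. CCN1, a secreted matrix protein, went from 10.59, 10.46 and 10.50 to 8.32, 8.54 and 8.25 (4.43-fold lower, limma adjusted p = 2.4e-13), with a gap of almost 2 log2 units between the groups. The growth factor TGFB2 was 2.51-fold lower, the clotting initiator F3 2.45-fold, the matrix protein CCN2 2.35-fold and FJX1 1.75-fold. In 8 of the 14 the change was lower than the mean change of the other 5 lines, by a test of the difference in the same fit, and in none higher. Of all genes 16.1% were lower by that test. The list's median was -0.33 in SCC047, 0.00 in SCC090, -0.04 in SCC25, 0.05 in SQ20B and -0.20 in SCC61.

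Inflammatory genes fell together. Among 11 genes that NF-kB, the inflammatory transcription factor, induces as its own feedback, 10 fell with and without control replicate 3, and the median change was -0.81. Of all genes 18.8% fell. TNFAIP3, the ubiquitin-editing inhibitor of NF-kB, went from 8.39, 8.22 and 8.07 to 6.52, 6.61 and 6.63 (3.12-fold lower, limma adjusted p = 2.77e-09). The kinase IRAK2 and the NF-kB subunits RELB and NFKB2 were 2.29-fold, 2.20-fold and 1.91-fold lower, the mitochondrial superoxide dismutase SOD2 1.78-fold and the adhesion molecule ICAM1 1.76-fold. NFKB1 did not pass (0.12).

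Of 25 cytokines and chemokines 15 fell, beside 18.8% of all genes, and 1 rose. The counts were the same without control replicate 3. IL1A, the alarm cytokine of keratinocytes, went from 9.41, 9.36 and 9.37 to 7.17, 7.14 and 7.25 and was 4.57-fold lower (change -2.19 ± 0.21, limma adjusted p = 7.5e-10). Its other, dimmer probe set changed by 0.47. CXCL8, which draws neutrophils, went from 10.13, 9.86 and 9.32 to 7.91, 7.74 and 7.76 (3.91-fold lower), and IL6 from 7.05, 6.99 and 6.79 to 5.27, 5.18 and 5.02 (3.44-fold lower). IL1A and CXCL8 were picked among genes without overlap. For IL6 the groups were separated as well, as they were in this direction for 23.5% of all genes. CXCL10 was 3.06-fold, the neutrophil chemokine CXCL2 2.67-fold and TSLP, an epithelial cytokine, 2.17-fold lower. The member that rose was IL1RN, the antagonist of the interleukin 1 receptor, at 0.49, a call that was lost without control replicate 2 or cetuximab replicate 2. A 10-base NF-kB site lay in the 250 bases upstream of 9 of the 19 members with a promoter in the table (47.4%), against 5.05% of 27305 genes, and 5 of these 9 were lower, as were 6 of the 10 without one. In the NF-kB feedback list 3 of 10 promoters held the site (30%).

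The genes of the ATF4 programme, which cells use when amino acids run short and which supplies amino acid synthesis, transport and tRNA charging, fell in 23 of 35 cases and rose in 1, SLC7A5 (median change -0.67; also 23 and 1 without control replicate 3). Over all genes 18.8% fell and 15.8% rose. ASNS, asparagine synthetase, read 9.43, 9.60 and 10.87 in the controls and 7.50, 7.51 and 7.39 with cetuximab. Control replicate 3 was the highest, but all 3 cetuximab arrays were also well below the other controls. The change was -2.50 ± 0.31, or 5.64-fold lower (limma adjusted p = 1.51e-07), and -2.04 without that control. A second ASNS probe set, near the lowest levels on the array at 3.42, changed by -0.09. NUPR1, a stress-induced nuclear protein, went from 8.27, 8.76 and 9.35 to 6.53, 6.31 and 6.61 (4.96-fold lower). CHAC1, which breaks down glutathione, went from 7.15, 7.52 and 7.75 to 5.61, 5.69 and 5.48 (3.68-fold lower). GDF15, a secreted stress factor, was 3.40-fold and the pseudokinase TRIB3 2.95-fold lower. In each of these 5 genes control replicate 3 was the highest array and the groups did not overlap. ASNS and NUPR1 were picked for that, and 23.5% of all genes were separated in this direction. The list averaged 9.04, 9.19 and 9.61 in the controls and 8.50, 8.46 and 8.46 with cetuximab, so the low values with the antibody were alike while the controls were spread. INHBE and STC2 were 2.59-fold and 2.82-fold lower, with changes of -1.38 and -1.49 that became -0.94 and -1.09 without control replicate 3.

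Sequences from the promoters of ASNS and CHAC1 are shown because they hold the 8-base element TGATGNAA, the C/EBP-ATF response element that ATF4 dimers bind. Both are written 5′ to 3′ on the gene's strand with the element, or its reverse complement, in capitals (RefSeq, GRCh38.p14). ASNS lies on the - strand at chr7:97872443-97872502 and CHAC1 on the + strand at chr15:40953236-40953295.
ASNS: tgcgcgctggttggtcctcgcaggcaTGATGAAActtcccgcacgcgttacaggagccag
CHAC1: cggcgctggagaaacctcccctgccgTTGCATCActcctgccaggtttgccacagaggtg
The element was found on either strand within 250 bases upstream in 5 of the 29 members with a promoter (17.2%; AARS1, ASNS, ATF3, CHAC1 and FGF21), against 3.19% of 27305 genes. It was present in 4 genes that fell, and 16 of the 24 members without it fell too.

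**Figure D3:**
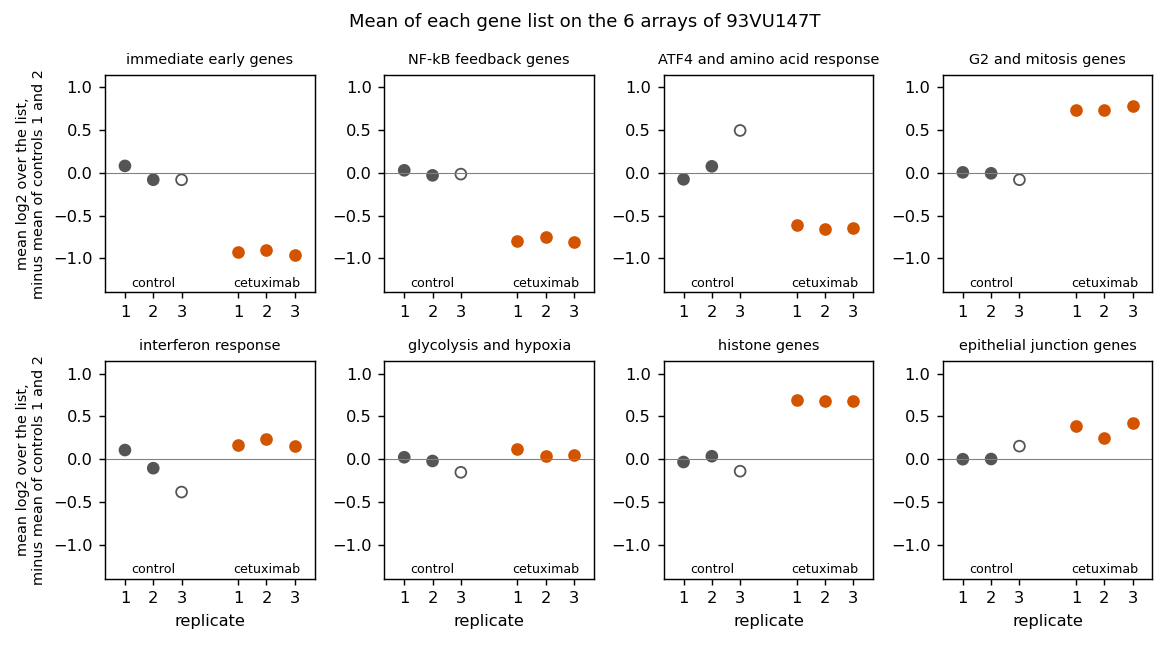
Mean level of 8 gene lists on each array of 93VU147T, minus the mean of control replicates 1 and 2 (y axes, log2 difference). Points are arrays, and the open circle is control replicate 3. The ATF4 list is raised and the interferon list lowered in control replicate 3, while the G2 and mitosis, NF-kB and immediate early lists are close together in the 3 controls.

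Genes of G2 and mitosis rose. Of 30 listed, 27 passed as higher and none as lower, against 15.8% of all genes, and the median change was 0.69. The counts were the same without control replicate 3. CENPF, a kinetochore protein, went from 7.51, 7.70 and 8.18 to 9.26, 9.14 and 9.56 (2.88-fold higher, limma adjusted p = 3.35e-10). HMMR, a spindle protein, went from 8.33, 8.33 and 8.24 to 9.72, 9.78 and 9.89 (2.82-fold higher). All 3 cetuximab arrays were above all controls for both, as they were for 18.3% of all genes. The kinetochore motor CENPE was 2.69-fold, the spindle pole protein ASPM 2.60-fold, the spindle assembly factor DLGAP5 2.60-fold and the proliferation antigen MKI67 2.51-fold higher. AURKB (0.25), CDC25C (0.09) and CENPA (-0.01) did not pass. The list averaged 8.79 to 8.87 in the controls and 9.60 to 9.65 with cetuximab.

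The upstream sequence of HMMR is shown as an example of the cell cycle homology region, TTTGAA, an element known from promoters that peak in G2 and mitosis. It is given 5′ to 3′ on the + strand of chr5:163460572-163460631 with the elements in capitals (RefSeq, GRCh38.p14).
HMMR: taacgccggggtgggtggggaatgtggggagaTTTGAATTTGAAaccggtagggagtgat
The 6 letters were found on either strand within 250 bases upstream in 14 of 25 members with a promoter (56%), where 13 were higher, and in 13.6% of 27305 genes. Of the 11 members without it 9 were higher.

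Genes of G1 and S phase did not follow. Of 27 measured 3 rose (RRM1, RRM2 and UHRF1) and 12 fell, with a median change of -0.16, and without control replicate 3 the counts were 3 and 14. The shares over all genes were 15.8% higher and 18.8% lower. The D type cyclin CCND1, which carries growth signals to the RB protein, went from 9.68, 9.69 and 10.05 to 8.78, 8.69 and 8.61 (2.16-fold lower, limma adjusted p = 0.000281). CCND2 was 1.76-fold lower and the replicative helicase subunit MCM2 1.33-fold. RRM2, a subunit of ribonucleotide reductase, was 1.47-fold higher. Mitotic genes were therefore higher and cyclin D genes lower in the same arrays. Among the CDK inhibitors and the RB family, 4 of 9 fell and 2 rose. CDKN1C went from 6.43, 6.52 and 6.20 to 5.21, 5.54 and 5.17 (2.11-fold lower), CDKN1A and CDKN2A fell by 0.35 each and RBL2 by 0.51. RB1 and its relative RBL1 rose by 0.89 and 1.24.

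Histone genes rose in 8 of 10 cases, against 15.8% of all genes. The median change was 0.68, and 7 of 10 rose without control replicate 3. After H2BC4 the largest changes were those of H4C8 (6.26, 6.25 and 6.37 in the controls, 7.86, 7.75 and 7.86 with cetuximab, 2.89-fold), H2BC5 (2.08-fold) and H2AC6 (1.67-fold). H1-2 and H2AC8 did not pass (-0.10 and -0.01).

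The interferon response list was split. Of 40 measured genes 15 rose, against 15.8% of all genes, and 2 fell (CMPK2 and IFITM1), with a median change of 0.16, and without control replicate 3 the counts were 14 and 4 and the median 0.03. SAMD9, which restricts poxviruses, went from 5.79, 5.55 and 5.42 to 7.36, 7.29 and 7.56 (3.52-fold higher, limma adjusted p = 1.34e-11). IFIT3, a sensor complex protein for viral RNA, went from 7.33, 7.15 and 6.84 to 8.79, 8.66 and 8.90 (3.19-fold higher), and its relative IFIT2 was 3.13-fold higher. HERC6, IFI44 and the helicase relative DDX60 were 2.36-fold, 2.34-fold and 1.93-fold higher. In these 6 genes no cetuximab array fell within the range of the controls. SAMD9, IFIT3 and IFIT2 were picked for that, and 18.3% of all genes were separated in this direction. ISG15, the ubiquitin-like modifier, read 10.62, 10.05 and 9.29 in the controls and 9.97, 10.23 and 9.75 with cetuximab, and IFI6 read 8.59, 8.23 and 7.35 and then 7.87, 8.17 and 7.55. The groups overlapped for both, and the changes of 0.00 and -0.19 did not pass (adjusted p = 0.997 and 0.572; -0.35 and -0.55 without control replicate 3, neither of which passed). The number that fell was 0 without control replicate 1, cetuximab replicate 1 or cetuximab replicate 3, 1 without control replicate 2 or cetuximab replicate 2, and 9 with array weights.

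Promoter sequences of SAMD9, which rose, and of ISG15 and IFI6, which did not pass, are shown because all of them hold the core of the interferon-stimulated response element, GAAA, 2 bases of any kind and GAAA. They are written 5′ to 3′ on the gene's strand with the core in capitals (RefSeq, GRCh38.p14). SAMD9 is on the - strand at chr7:93118081-93118140, ISG15 on the + strand at chr1:1013365-1013424 and IFI6 on the - strand at chr1:27672251-27672310.
SAMD9: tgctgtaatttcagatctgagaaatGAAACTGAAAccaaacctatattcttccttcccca
ISG15: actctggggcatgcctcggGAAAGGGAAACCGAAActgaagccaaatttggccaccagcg
IFI6: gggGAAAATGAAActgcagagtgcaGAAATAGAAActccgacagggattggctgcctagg
On either strand within 250 bases upstream, 20 of the 32 members with a promoter in the table held the core (62.5%), against 3.07% of 27305 genes. Of these 20, 9 were higher and 1 was lower, and of the 12 without it 4 were higher and 1 was lower.

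MHC class I presentation genes, which load peptides for T cells and are also induced by interferon, fell in 8 of 16 cases, against 18.8% of all genes (also 8 without control replicate 3), and rose in 1, with a median change of -0.23. NLRC5, the transcriptional activator of these genes, went from 6.54, 6.54 and 6.49 to 5.83, 5.65 and 5.84 (1.68-fold lower, limma adjusted p = 8.23e-07). The peptide transporter TAP1 and the proteasome parts PSME1 and PSMB9 were 1.47-fold, 1.47-fold and 1.44-fold lower, and HLA-F 1.35-fold. The trimming enzyme ERAP2 rose 1.90-fold. Of 8 immune checkpoint ligands 3 fell and none rose, with CD274, the ligand of PD-1, at 6.45, 6.80 and 6.47 in the controls and 5.80, 5.99 and 6.01 with cetuximab (1.56-fold lower).

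Of 37 keratinocyte differentiation genes 9 rose, beside 15.8% of all genes, among them SCEL, the kallikrein proteases KLK6 (2.22-fold) and KLK10 (1.75-fold), the mucosal keratin KRT13, LY6D (2.07-fold) and the desmosomal cadherin DSC2 (1.90-fold). KRT13 went from 8.58, 8.14 and 7.66 to 9.30, 8.95 and 9.51, with no overlap (2.18-fold, limma adjusted p = 0.0036). Of all genes 18.3% were separated in this direction. The 2 that fell were CNFN and RHCG, 26 did not pass, and the median change was 0.08. Without control replicate 3 the counts were 8 and 1, and without control replicate 2 or cetuximab replicate 3 none fell. Serine protease inhibitors of squamous cells rose in 6 of 9 cases (5 without control replicate 3) and SERPINE2 fell. SERPINB13 and SERPINB3 were 2.28-fold and 2.21-fold higher. Of the basal genes, KRT5 rose 1.59-fold and KRT15 2.91-fold, but KRT15 lost its call without control replicate 3 (adjusted p = 0.0529).

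The 16 epithelial junction genes had a median change of 0.40. Of these genes 10 rose, against 15.8% of all genes, and 9 did without control replicate 3. Those with the largest changes were parts of the desmosome, the spot junction that ties keratin filaments of neighbouring cells: DSG3 (1.87-fold), DSP (1.83-fold), DSG2 (1.80-fold), DSC3 (1.64-fold) and JUP (1.55-fold). DSP, the desmosomal plaque protein desmoplakin, went from 10.23, 10.47 and 10.81 to 11.48, 11.15 and 11.50. Every cetuximab array was above the controls, as was so for 18.3% of all genes. TJP1 of the tight junction was 1.53-fold higher. The tight junction claudins CLDN1 and CLDN4, named here after their values were seen because they were the 2 that fell, had changes of -0.59 and -0.56.

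The title of the series names AP-2alpha, the transcription factor encoded by TFAP2A. TFAP2A read 9.24, 9.43 and 9.89 in the controls and 9.46, 9.36 and 9.39 with cetuximab, so the groups overlapped and the change of -0.12 did not pass (limma adjusted p = 0.396; 0.07 without control replicate 3). TFAP2C had a change of -0.20 (adjusted p = 0.057), TFAP2B -0.14 and TFAP2D -0.32, none of which passed. TFAP2E passed at 0.28, and lost that call when any array other than control replicate 3 was left out and in the 6 arrays alone. The study sorts annotated targets of AP-2alpha by the direction they took in sensitive HaCaT keratinocyte lines given EGFR inhibitors. For its carcinoma lines it reports how changes of TFAP2A and of the increased targets were associated with that of EGFR. The association was weaker in HPV-positive than in HPV-negative lines. Of the 5 measured targets sorted as increased there, BMP2 fell 1.89-fold and EGFR, ERBB2, IGF1R (-0.15) and BMP4 (-0.21) did not pass, though BMP4 did without control replicate 3 (-0.26). Another probe set of IGF1R changed by 0.67, and the rest by -0.08, 0.09 and -0.02. Of the 4 sorted as decreased, VEGFA fell 2.35-fold, FGFR4 1.51-fold and TGFA 1.27-fold, and TGFBR3 did not pass (-0.02). VEGFA, the vascular growth factor, went from 10.49, 10.68 and 11.26 to 9.61, 9.38 and 9.74.

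Among genes of metabolism and stress, the heat shock list stood out by its count: 7 of 9 chaperone genes rose and none fell, with and without control replicate 3, led by HSPA4L (7.45, 7.65 and 7.54 against 8.72, 8.74 and 8.81, 2.31-fold) and HSPH1 (1.77-fold). The glycolysis and hypoxia list moved with the setting, with 14 of 27 higher in the main fit. The list had 7 higher without control replicate 3, 8 without cetuximab replicate 1 and 9 with quantile normalization. Its members HK2 (hexokinase) and LDHA (lactate dehydrogenase) had changes of 0.66 and 0.54, and BNIP3 of 0.53, or 0.28 without control replicate 3. The unfolded protein response list held 2 higher and 3 lower of 17, but XBP1, the splice-activated transcription factor of that response, was 2.44-fold lower. Fatty acid genes were higher in 7 of 16 and lower in 3, with SREBF1, the regulator of lipid synthesis, 1.64-fold higher and CPT1A, which brings fatty acids into mitochondria, 2.14-fold lower. Sterol synthesis had 4 higher and 2 lower of 15, NRF2 targets 2 and 4 of 19, ribosome biogenesis 6 and 2 of 18, metallothioneins 0 and 2 of 8, and autophagy and lysosome genes 3 and 3 of 16. Over all genes 15.8% were higher and 18.8% lower, so several of these small counts lay near those shares. Without control replicate 3, 5 unfolded protein response genes, 5 fatty acid genes and 4 sterol genes were lower.

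The BCL2 family had 0 higher and 6 lower of 15, with the pro-death members BID and BOK 1.88-fold and 1.83-fold lower and the survival gene BCL2L1 1.52-fold lower. Over all genes 15.8% were higher and 18.8% lower, and several of the smaller counts below were near those shares. FOXO targets had 4 higher and 4 lower of 16, with TXNIP, the thioredoxin inhibitor, 2.55-fold lower. The p53 targets had 5 and 5 of 15, and GADD45A, a stress gene of growth arrest, was 3.02-fold lower. WNT pathway genes had 0 and 10 of 16 (8 lower without control replicate 3), led by WNT7A (1.73-fold lower) and WNT4 (1.60-fold lower). TGF-beta, BMP and ID genes had 3 and 5 of 19, with the activin subunit INHBA 3.04-fold lower and ID2 1.99-fold higher. The counts were 1 and 3 of 12 for the Notch pathway, 2 and 3 of 10 for mesenchymal genes, 1 and 5 of 16 for matrix metalloproteinases, 1 and 3 of 20 for secretory and mucosal genes, 3 and 1 of 12 for basal keratinocyte genes, 1 and 2 of 10 for TRAIL and its receptors, 0 and 4 of 14 for other growth factor receptors and 0 and 0 of 5 for APOBEC3 genes (limma; also none at an unadjusted p under 0.05). Some of these counts moved with single arrays: without control replicate 3, for example, 3 Notch genes rose, 1 mesenchymal gene fell and no metalloproteinase rose. Of 12 genes associated with HPV status 4 fell (STAG3, TCAM1P, MEI1 and CDKN2A) and none rose, though 2 did without control replicate 3.

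Each change in 93VU147T was also tested against the mean change of the other 5 lines in the same limma fit, where every line had its own controls. It was higher than that mean for 2234 genes (11.3%) and lower for 3188 (16.1%). Against the mean of SCC047 and SCC090, the 2 other HPV-positive lines, it was higher for 1684 (8.52%) and lower for 1786 (9.03%). Without control replicate 3 the counts were 2256 and 3297 against the 5 lines, and 1797 and 2020 against the 2. For the G2 and mitosis list the difference from the other 5 lines was positive and passed in 27 of 30 genes, and that from SCC047 and SCC090 in 23, with no gene the other way. The median of this list was 0.69 in 93VU147T, 0.44 in SCC047, 0.09 in SCC090, -0.37 in SCC25, 0.13 in SQ20B and 0.50 in SCC61, so the mean of the others joins lines of both signs. In the ATF4 list 22 of 35 genes were lower than the mean of the other 5 lines and 22 lower than SCC047 and SCC090. Among the controls of 93VU147T the mean of that list was highest in control replicate 3. In the NF-kB feedback list 10 of 11 were lower than the 5 lines and 5 lower than the 2, and in the cytokine list 12 and 10 of 25. For the immediate early genes 9 of 15 fell further than the mean of the other 5 lines and 1 less far. The fall was not particular to 93VU147T: the median of that list was -0.54 there, -0.81 in SCC047 and -0.61 in SCC61. It was -0.02 in SCC090, 0.09 in SCC25 and -0.19 in SQ20B. The NF-kB feedback median was -0.81 in 93VU147T and -0.64 in SCC047, against -0.05 in SCC090, 0.13 in SCC25, 0.22 in SQ20B and 0.13 in SCC61.

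**Figure D4:**
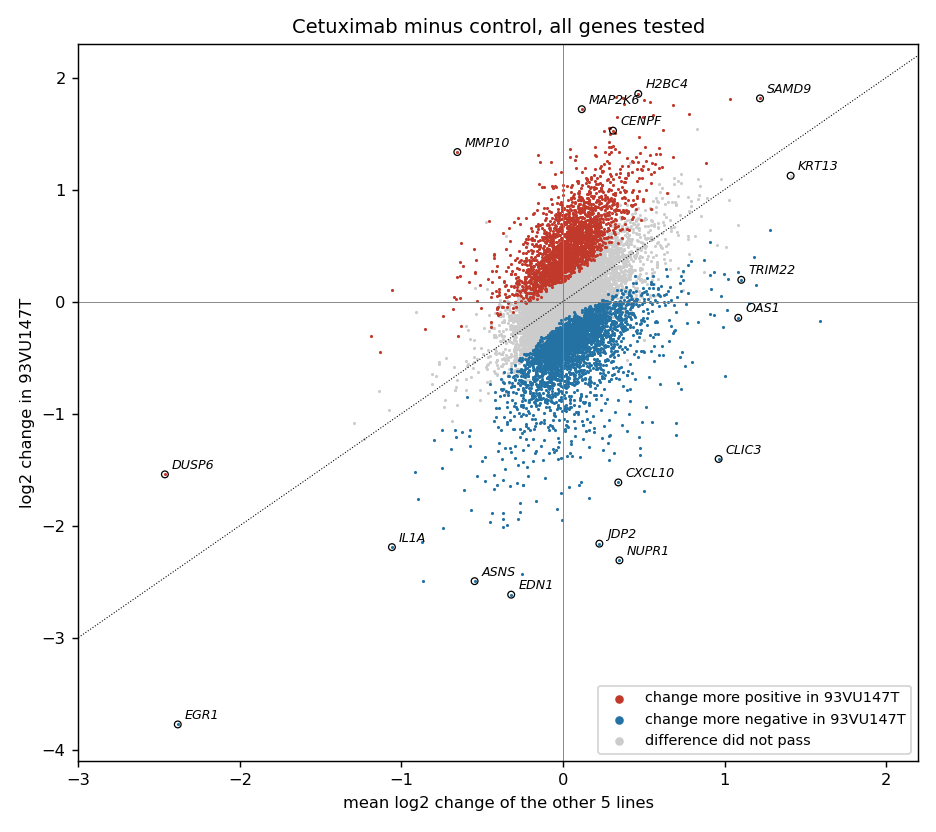
Change after cetuximab in 93VU147T (y axis) against the mean change of the other 5 lines (x axis), both log2 differences, with a point for each gene tested. Coloured genes are those whose difference passed the limma test, the dotted line marks equal change, and the labelled genes are examples chosen after their values were seen. NUPR1 and JDP2 lie far below that line, with mean changes of 0.35 and 0.23 in the other lines.

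In the interferon list 93VU147T mostly moved less than the others. The median change over the list was 0.16 in 93VU147T, against 0.98 in SCC047, 0.06 in SCC090, 0.61 in SCC25, 0.40 in SQ20B and 1.12 in SCC61. In 22 of 40 genes the change was lower than the mean of the other 5 lines, and in 8 it was higher, among them IFIT2 (difference 1.15), IFIT3 (0.90), DDX60 (0.69), IFI44 (0.65), SAMD9 (0.60) and HERC6 (0.35). ISG15 and IFI6 were lower by 0.58 and 0.96 (limma adjusted p = 0.0381 and 0.00464), where control replicate 3 was the lowest of the controls. MHC class I genes were lower than the other lines in 10 of 16 and higher in 1, and keratinocyte differentiation genes lower in 10 of 37 and higher in 2. Of all genes 11.3% were higher and 16.1% lower by that test. In the G1 and S phase list 17 of 27 were lower and 1 was higher, with medians of -0.16 in 93VU147T, 0.35 in SCC047 and 1.53 in SCC61, and of -0.49 and -0.56 in SCC25 and SQ20B.

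Among feedback inhibitors of ERK the differences from the other 5 lines ran both ways, 3 higher and 3 lower of 12. Of all genes 11.3% were higher and 16.1% lower. Against SCC047 and SCC090 none was higher and 5 were lower, beside 8.52% and 9.03% of all genes. DUSP6 fell by 0.92 less than the mean of the other lines (limma adjusted p = 0.0202), whereas DUSP1 fell by 1.00 more (adjusted p = 1.62e-06). EGR1 fell by 1.39 more than the mean of the other lines and by 1.70 more than SCC047 and SCC090 (adjusted p = 0.00039 and 0.000327). ERBB3 had a mean change of 0.43 in the other lines and fell in 93VU147T, a difference of -0.73 (adjusted p = 3.42e-07), while the difference from SCC047 and SCC090 was -0.19 and did not pass. CDKN1C showed the opposite signs too, with a mean change of 0.49 in the other lines and a difference of -1.57 (adjusted p = 1.04e-10).

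**Figure D5:**
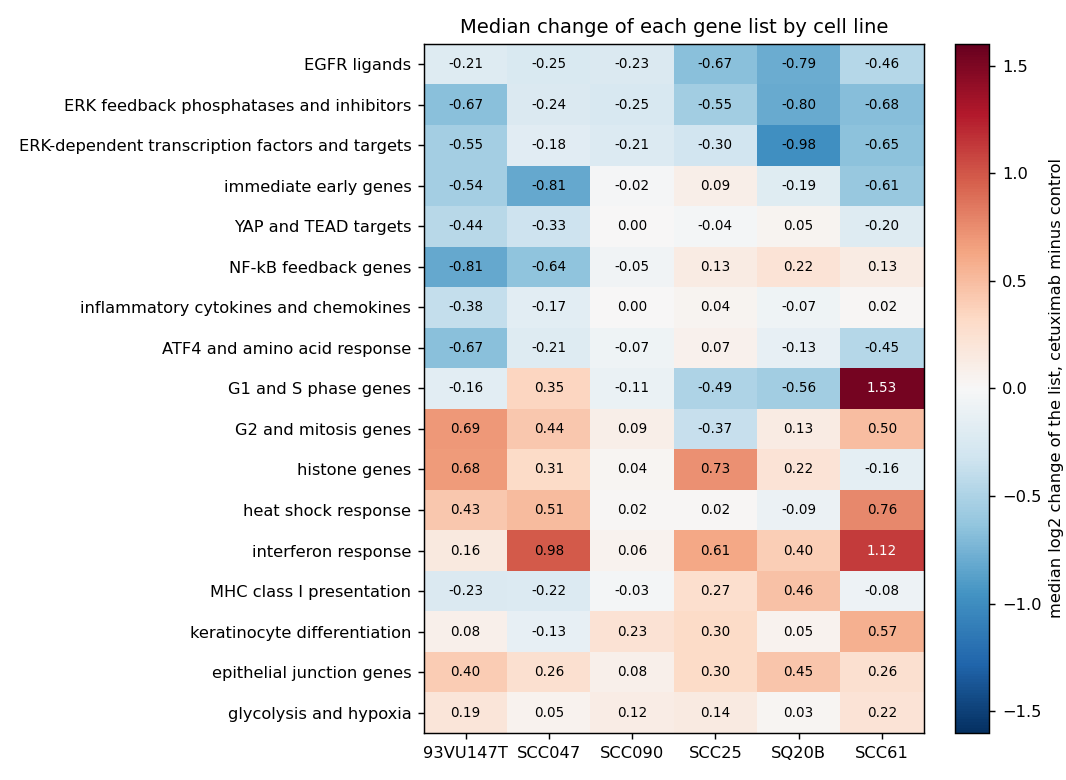
Median change of each gene list (rows) after cetuximab in the 6 lines (columns), as log2 differences shown by colour. The 93VU147T column shows the lowest NF-kB feedback and ATF4 medians, -0.81 and -0.67, and an interferon median of 0.16, below 4 of the other 5 lines.

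The overlap of calls was largest with SCC047. The genes that rose in both lines numbered 1767, which was 56.5% of those in 93VU147T and 51.7% of those in SCC047, and 1777 fell in both (47.8% and 47.4%), while 132 and 225 genes of 93VU147T moved the other way in SCC047. In SCC61 1504 rose and 1165 fell in both lines, with 556 and 870 opposite, and in SQ20B 830 and 660, with 617 and 1005 opposite. In SCC25 419 rose in both lines, 13.4% of those in 93VU147T and 24.5% of those in SCC25, and 407 fell in both (11.0% and 28.2%). There 361 and 466 were opposite, so more of the falls were opposite than shared. SCC090 shared 19 and 62, with 18 and 26 opposite, but only 102 and 175 genes passed in that line. Of all genes 17.3% rose and 19.0% fell in SCC047, 24.4% and 19.8% in SCC61 and 18.4% and 14.9% in SQ20B. The shares were 8.66% and 7.30% in SCC25 and 0.516% and 0.885% in SCC090. The genes that passed in 93VU147T and the same way in no other line numbered 504 higher and 1085 lower.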

How the data were processed

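RNA of 42 samples was labelled with biotin and hybridised to Affymetrix HG-U133 Plus arrays, and the authors deposited log2 expression values of 54675 probe sets, normalized with fRMA, with replicates kept apart. The methods also name pSVA, and whether the deposited values hold that correction is not given in the sources used here. Of the probe sets 41091 carried 1 gene symbol, 1801 several and 11721 none, and 62 were array controls. Each of 19775 genes was represented by its brightest probe set (by the mean of the 42 arrays), and 10523 of them had more than 1. Array medians of the kept genes ran from 6.11 to 6.22 in the 6 arrays of 93VU147T.

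A linear model (limma 3.58.1 in R 4.3.3) with 12 group means was fitted to the 36 arrays of the 6 lines that had both treatments, with 24 residual degrees of freedom. Changes are cetuximab minus control on the log2 scale, with Benjamini-Hochberg adjustment over all genes and a threshold of 0.05. The fit was tested on simulated data. The 51 gene lists, the comparison and the tests were chosen with earlier results of these data known. The genes named are the 15 largest rises and falls without overlap, up to 6 members of each list with the largest change, all members of the receptor, ligand, ERK feedback and AP-2 lists, the 8 largest differences from the other 5 lines each way and 5 genes each way in which control replicate 3 differed most. Genes named as exceptions in small counts (5 or fewer), and NRG4's place outside its list, were singled out after their values were seen. Alternatives were other probe set choices, a filter on dim genes, centred and quantile normalized arrays, a replicate block and all 42 arrays. Others were an intensity trend, array weights, the batch inferred from array names, the 6 arrays alone, stricter thresholds and each array left out. Motifs were searched on both strands in the 250 bases before the first listed start site of 27305 genes (RefSeq, GRCh38.p14), and promoters absent from that table were not analysed here.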

Additional observations from a re-analysis of the deposited data

Results flagged for a closer look

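The change in 93VU147T differed from the mean change of the other 5 lines for 5422 genes, and from that of SCC047 and SCC090 for 3470, by the limma test of the difference itself. The largest positive differences were those of MMP10 (1.99), MAP2K6 (1.60), NEFM (1.50), MALL (1.46), SCEL (1.44), DOCK11 (1.39), RASSF9 (1.39) and H2BC4 (1.39). MMP10, a stromelysin, had a change of 1.34 in 93VU147T that did not pass on its own (limma adjusted p = 0.0911). Its control values were 4.22, 4.65 and 3.98 and its cetuximab values 5.64, 5.62 and 5.60. The spread used in that test was shared over the 6 lines of the fit. The largest negative differences were those of NUPR1 (-2.66), JDP2 (-2.39), CLIC3 (-2.37), EDN1 (-2.30), COXFA4L3 (-2.19), SCAT1 (-2.18), CXCL10 (-1.96) and ASNS (-1.95). CLIC3, NUPR1, COXFA4L3, CXCL10 and JDP2 had mean changes of 0.96, 0.35, 0.50, 0.34 and 0.23 in the other lines and fell in 93VU147T.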

How the results depend on the processing

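The count of genes that passed held within 1.5 times under all alternatives except array weights and a minimum change of 0.5. Of the genes that passed in both, 33 had the opposite direction with the probe set chosen by deviation ratio and 5 with the mean of all probe sets. With array weights 11309 genes changed (4884 higher, 6425 lower), 9761 differed from the mean of the other 5 lines (4116 higher, 5645 lower) and 7234 from SCC047 and SCC090 (3295 higher, 3939 lower); control replicate 3 then had a weight of 0.299 and control replicate 2 of 4.18. With a minimum change of 0.5 the count was 2473 (1348 higher, 1125 lower). Leaving out 1 array at a time gave 5411 to 6911 changed genes (2569 to 3124 higher, 2842 to 3787 lower), 4303 to 5553 that differed from the other 5 lines (1757 to 2256 higher, 2546 to 3297 lower) and 2499 to 3817 that differed from SCC047 and SCC090 (1224 to 1797 higher, 1275 to 2020 lower). Of the named genes' values under 17 settings, 5190 kept their side of the threshold (46 with the opposite sign but no call in either), 116 passed only under the alternative, 121 no longer passed and 6 that were called changed sign. These 6 were NPIPA1 (-0.06, but -0.28 to 0.32 with 1 array left out, the highest without control replicate 3, and 0.22 with array weights), BAD (-0.45, but 0.20) and PDCD1LG2 (-0.34, but 0.032) with the probe set chosen by deviation ratio, and HK2 (0.66, but -0.00083) and WDR12 (0.27, but -0.022) with the mean of all probe sets. The cause was not tested beyond the construction of these settings. Without control replicate 3 the changes of BNIP3 and MBIP went from 0.53 to 0.28 and from 0.50 to 0.17, and neither passed. The labels do not say whether the replicate numbers pair the samples. The correlations of same-numbered deviations were -0.0916, 0.0341 and 0.32, which cannot settle it. With the replicate block 6997 genes changed, of which 6591 had passed in the same direction without it. Values near the lowest level on the arrays carry little signal over background, so changes of dim probe sets are limited by it.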

Other observations

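Of 9 genes of prostaglandin metabolism 2 rose, 2 fell and 5 did not pass. Over all genes 15.8% rose and 18.8% fell. PTGS2, the inducible cyclooxygenase that makes the prostaglandin precursor, read 6.14, 6.42 and 6.21 in the controls and 4.79, 4.33 and 4.59 with cetuximab (3.22-fold lower, limma adjusted p = 3.56e-09). PTGER4, a receptor for prostaglandin E, went from 7.90, 7.55 and 7.67 to 6.19, 5.96 and 6.10 (3.08-fold lower). HPGD, the dehydrogenase that inactivates prostaglandins, went from 6.63, 6.56 and 6.05 to 7.91, 7.78 and 8.07 (2.84-fold higher). PLA2G4A, the phospholipase that releases arachidonic acid, rose by 0.53 (limma adjusted p = 0.000224). The groups did not overlap for PTGS2, PTGER4 and HPGD, and these 3 changes differed from the mean change of the other 5 lines (by -1.07, -1.34 and 1.18). Of all genes 18.3% were separated upward and 23.5% downward. The change was higher than that mean for 11.3% of all genes and lower for 16.1%.

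Matrix genes of the mesenchymal list also went both ways. SPARC, a secreted glycoprotein, went from 5.17, 5.24 and 5.14 to 3.69, 3.91 and 3.94 (2.53-fold lower), and FN1, fibronectin, from 6.34, 6.29 and 6.55 to 7.18, 6.97 and 7.05 (1.60-fold higher). LCN2, an iron-binding protein of mucosal defence, was 1.92-fold lower in 93VU147T and changed by 0.51 on average in the other lines.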
